A study of Mus musculus with 6 samples.

Results

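Gene deserts are long stretches of chromosome without annotated gene starts, and 420 of the 6756 cytosines listed as differently methylated in blood stem and progenitor cells without Tet1 lay in them. A site was counted as a gene-desert site when the deposited annotation called it intergenic, placed it at least 100000 bp from the nearest transcription start and assigned it neither to a CpG island nor to a repeat. This selection used position alone and not the methylation values. The 420 sites were 6.22% of all listed sites, and they were nearest to 240 of the 3344 genes named in the tables.

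The cells were LSK cells, a lineage-negative marrow fraction positive for Sca-1 and Kit that holds the haematopoietic stem and early progenitor cells. They were flow-sorted from bone marrow of mice 6 months old, with 3 wild-type (WT) and 3 Tet1 knockout (Tet1 KO) samples, all labelled with the strain CD57BL/6. Neither the Tet1 allele nor the number of mice behind each sample is given in the labels. The assay, enhanced reduced representation bisulfite sequencing (ERRBS), reads mainly CpG-rich fragments and counts methylated and hydroxymethylated cytosine alike. The authors' deposited tables give 1 difference per cytosine in percentage points, knockout minus wild type, and begin at an absolute difference of 25. Levels per sample, coverage and p-values of single sites were not analysed here. The depth behind a value is therefore unknown, the sorted cells could not be checked against markers, and no difference below carries a replicate error.

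Tet1 encodes a dioxygenase that oxidises 5-methylcytosine, a step on the way to unmethylated cytosine, so cells without it lack part of the machinery that keeps or makes sites unmethylated. Gene deserts are known to flank many regulators of embryonic development, and they can hold enhancers, short sequences that raise the transcription of a gene over a long distance. The gene with the nearest start is therefore a landmark for a desert site and is not known to be its target. Positions below are those of the mouse build mm9, and every desert site described is intergenic in the deposited annotation. Intervals on shares and medians are at 95% and cover counting error only.

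In the deserts, gains of methylation in the knockout far outnumbered losses. Of the 420 desert sites in the authors' deposited tables, 383 were hypermethylated and 37 hypomethylated, so 91.2% were gains (exact Clopper-Pearson interval 88.1 to 93.7%), beside 92.8% of all listed sites (92.2 to 93.4%). Because close sites can share reads, neighbours of like direction within 1000 bp were joined, which left 248 hypermethylated and 35 hypomethylated regions. The hypermethylated share of these regions was 87.6% (83.2 to 91.2%), beside 89.4% of all listed regions (88.4 to 90.3%). The intervals overlap at both levels, and sites and regions are not replicates of a genotype, so no test was run between them.

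The balance between gains and losses can be followed outwards from gene starts among intergenic sites outside islands and repeats. Within 20 kb of a start, 38 of 511 regions were hypomethylated (7.44%, 5.32 to 10.1%). From 20 to 100 kb, the number was 50 of 529 (9.45%, 7.10 to 12.3%), and in the deserts it was 35 of 283 (12.4%, 8.77 to 16.8%). Each share lies above the one before it, and the intervals of neighbouring classes overlap. Intergenic regions equally far from a start but in islands or repeats were left out of these classes. Of those 80 regions, 19 were hypomethylated (23.8%, 14.9 to 34.6%). The same share for island or repeat regions nearer to a start is not given here. Inside the deserts the hypomethylated share was counted in 5 bins of distance. From 100 to 150 kb, 8 of 114 regions were hypomethylated (7.02%, 3.08 to 13.4%), and from 150 to 200 kb the number was 7 of 63 (11.1%, 4.59 to 21.6%). From 200 to 300 kb it was 13 of 55 (23.6%, 13.2 to 37.0%), the highest share of the 5 bins. From 300 to 500 kb it was 6 of 38 (15.8%, 6.02 to 31.3%), and beyond 500 kb 1 of 13 regions was hypomethylated. The bins were set after the sites had been seen, neighbouring bins overlap in their intervals, and the differences between them were not tested.

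**Figure D1:**
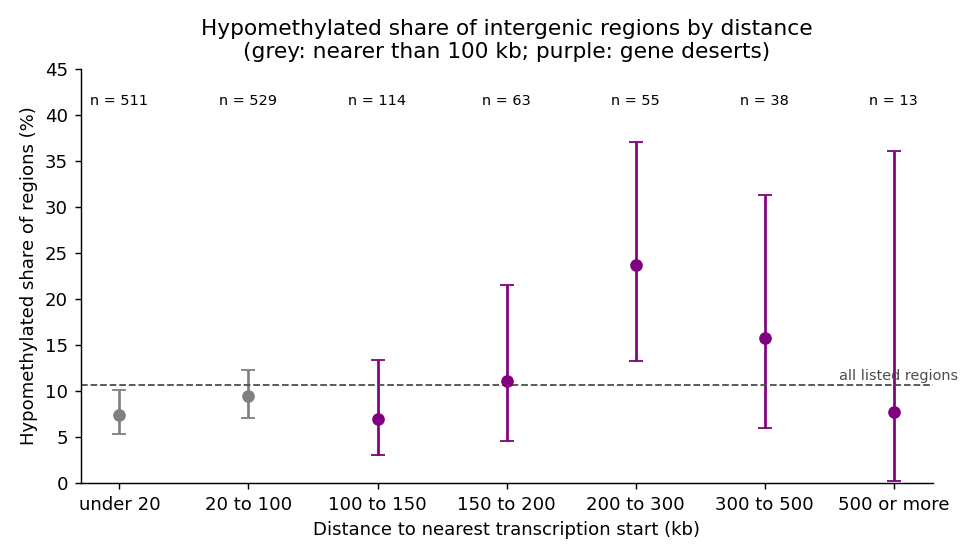
Share of joined intergenic regions that were hypomethylated (y axis, %) by distance to the nearest transcription start (x axis, kb), with exact 95% intervals that cover counting error only and the number of regions above each point. Points stand at 7.44% within 20 kb, 9.45% at 20 to 100 kb and 7.02% at 100 to 150 kb, reach their highest value of 23.6% at 200 to 300 kb and are lower farther out, where few regions remain; the dashed line is the share over all listed regions (10.6%).

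The sizes of the differences in the deserts were close to those over all listed sites. The median of the 383 hypermethylated desert sites was 40.1 percentage points in the authors' deposited table (interval from ranks 38.5 to 41.3, range 25.2 to 87.5), beside 41.1 over all hypermethylated sites (40.6 to 41.5). The 37 hypomethylated desert sites had a median of -36.7 percentage points (-40.0 to -32.4, range -63.2 to -25.1), beside -34.1 over all hypomethylated sites (-35.1 to -33.1). At least 60 percentage points were reached by 45 hypermethylated desert sites (11.7%) and 1 hypomethylated desert site, beside 12.3% and 2.88% of all listed sites of those directions. The median hypermethylated difference was 41.1 percentage points at 100 to 150 kb, 40.2 at 150 to 200 kb, 37.2 at 200 to 300 kb, 40.6 at 300 to 500 kb and 31.6 beyond 500 kb, where 14 sites lay. Because both lists start at 25 percentage points, each median describes listed sites and not the average change of a desert.

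**Figure D2:**
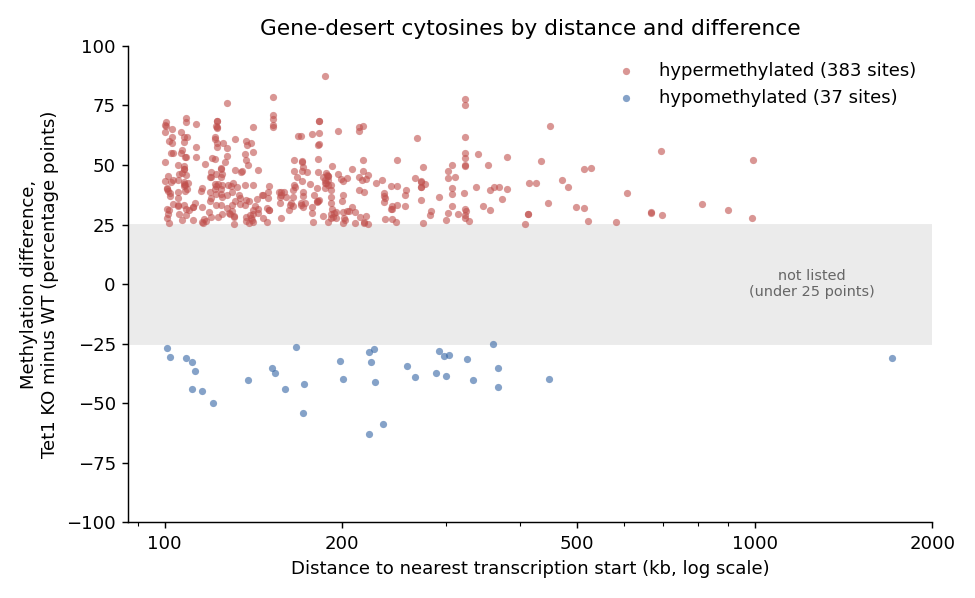
Every gene-desert cytosine by its distance to the nearest transcription start (x axis, kb, log scale) and its methylation difference, knockout minus wild type (y axis, percentage points). The 383 hypermethylated sites crowd between 100 and 300 kb, the 37 hypomethylated sites thin out towards -63.2, and the grey band holds differences too small to be listed.

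The distance that defines a desert is a boundary in a continuous range. The sites just inside it were a pair nearest Tnfrsf11a, the gene of the receptor RANK, at 100064 and 100092 bp, where the authors' deposited table lists 66.7 and 63.9 percentage points. The sites just outside it were nearest Frem2, at 99260 bp, and 9430014N10Rik, at 99104 bp, with 33.6 and 38.9 percentage points. The median distance was 163003 bp for hypermethylated and 222253 bp for hypomethylated desert sites. The farthest site of all lay 1706197 bp from the start of 4931417E11Rik on chromosome 6 and was hypomethylated (-31.2 percentage points in the authors' deposited table). Next came a site 993437 bp from Ntm, the gene of the neuronal adhesion molecule neurotrimin (51.9 percentage points), and 1 at 987651 bp from Lrrn3, which encodes a leucine-rich repeat protein of neurons (27.8 percentage points). Ntm also had 5 hypermethylated sites in introns, and Lrrn3 had 1 promoter site.

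Desert sites lay on all 20 chromosomes with listed sites, and hypermethylated sites outnumbered hypomethylated ones on 19 of them. The exception was chromosome 19, with a single desert site, which was hypomethylated. Chromosome 5 held 60 desert sites (14.3% of the 420, beside 9.59% of all listed sites), chromosome 4 held 48 (11.4%, beside 8.29%) and chromosome 8 held 40 (9.52%, beside 5.40%). Chromosome 8 also had 7 of the 37 hypomethylated sites, the most of any chromosome, and 2 of the 7 were a pair 67 bp apart. The share of all listed hypomethylated sites on chromosome 8 was not computed, so this count has no background. Chromosome 11 showed the reverse, with 8.76% of all listed sites and 10 desert sites (2.38%). Another 7 desert sites, all hypermethylated, lay on unplaced contigs, where a distance to a gene start is uncertain.

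**Figure D3:**
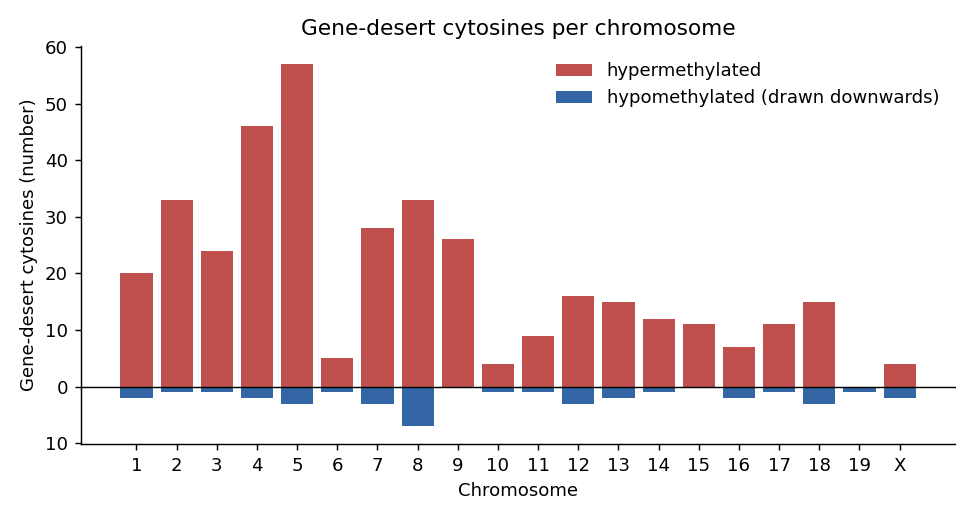
Number of gene-desert cytosines on each placed chromosome (x axis), with hypermethylated sites as bars upwards and hypomethylated sites as bars downwards. Chromosome 5 has the tallest bar (57 hypermethylated sites), chromosome 8 the deepest (7 hypomethylated sites), and chromosomes 9 and 15 have no hypomethylated desert site.

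Part of the desert hypermethylation was concentrated in a few places. When desert sites within 100 kb of each other were grouped whatever their direction, they formed 240 stretches, of which 167 held a single site and 11 held at least 5. Those 11 stretches carried 94 sites, 22.4% of all desert sites, and none of the 94 was hypomethylated. Chromosome 5 owed 38 of its 60 desert sites to 3 of these stretches. The grouping was chosen after the sites had been seen and was made for desert sites alone, so it has no background share. Among hypermethylated regions joined within 1000 bp, 27.4% in the deserts held at least 2 sites. The share was 28.8% from 20 to 100 kb, 28.1% within 20 kb and 31.8% over all listed regions. Clustering is therefore not read as particular to the deserts.

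The stretch with the most sites lay on chromosome 5 between 112358282 and 112528048, a span of 169767 bp between the uncharacterised genes E130006D01Rik and 1700028D13Rik. It held 21 hypermethylated sites and no other listed site of any kind, and their values in the authors' deposited table averaged 49.3 percentage points (range over sites 30.8 to 68.5). Of these, 9 sites stood within 1010 bp (112372751 to 112373760, mean 54.1 percentage points) and 9 within 301 bp at the other end (112527748 to 112528048, mean 47.5), and single sites lay before and between them. Both clusters had sites on both strands. The whole stretch lay upstream of both nearest starts, at 167534 to 205611 bp from E130006D01Rik and 107735 to 203631 bp from 1700028D13Rik.

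Also on chromosome 5, 12 hypermethylated sites lay between 120702153 and 120754267, averaging 51.0 percentage points in the deposited table of the authors. The first 4 were nearest Gm10390 and the other 8 nearest Lhx5, a LIM homeobox transcription factor of the developing forebrain. The 8 Lhx5 sites were 127628 to 143817 bp upstream of its start in 3 regions. The region nearest to the gene had values of 53.8, 76.1 and 57.3 percentage points (mean 62.4), a middle pair had 41.7 and 54.8 (mean 48.3) and a far group had 47.7, 31.5 and 30.0 (mean 36.4). The means of these 3 regions were in the order of nearness, while single values of neighbouring regions overlapped. The order did not continue through the stretch. Farther from Lhx5, the Gm10390 sites had 41.4 percentage points and, in the farthest group, 67.3, 53.2 and 57.4 (mean 59.3). Lhx5 had 4 more hypermethylated sites outside the desert class, with a mean of 40.4 percentage points.

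On chromosome 18, 9 hypermethylated sites lay far upstream of Skor2, which encodes a SKI family transcriptional corepressor of the cerebellum. Of these, 8 stood within 234 bp (76772193 to 76772426), at 322718 to 322951 bp from the start. Their values in the authors' deposited table were 77.6, 75.0, 61.6, 55.0, 50.2, 31.4, 52.8 and 49.6 percentage points in order along the chromosome. The ninth, at 76795107, had 27.0 percentage points. Skor2 also had 3 hypermethylated exon sites with a mean of 30.7 percentage points, lower than 8 of the 9 desert values.

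On chromosome 2, the genes Tfap2c and Bmp7 face each other across a desert, and desert sites lay past the gene ends of both. Bmp7 encodes a secreted ligand of the TGF-β family. The 5 sites at 172613039 to 172613204, 152590 to 152755 bp downstream of its start, are listed in the authors' deposited table at 69.4, 65.8, 78.5, 66.9 and 70.8 percentage points. With a mean of 70.3 percentage points this was the highest region mean among desert regions. The sixth Bmp7 site, 2795 bp from the fifth, had 38.8 percentage points. On the other side, the 3 sites nearest Tfap2c, a transcription factor of trophoblast and germ cells, had 42.3, 35.0 and 40.1 percentage points, all below the 5 clustered Bmp7 sites. An LTR repeat between the gene groups held 1 further listed site (26.7 percentage points), which the selection left out.

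**Figure D4:**
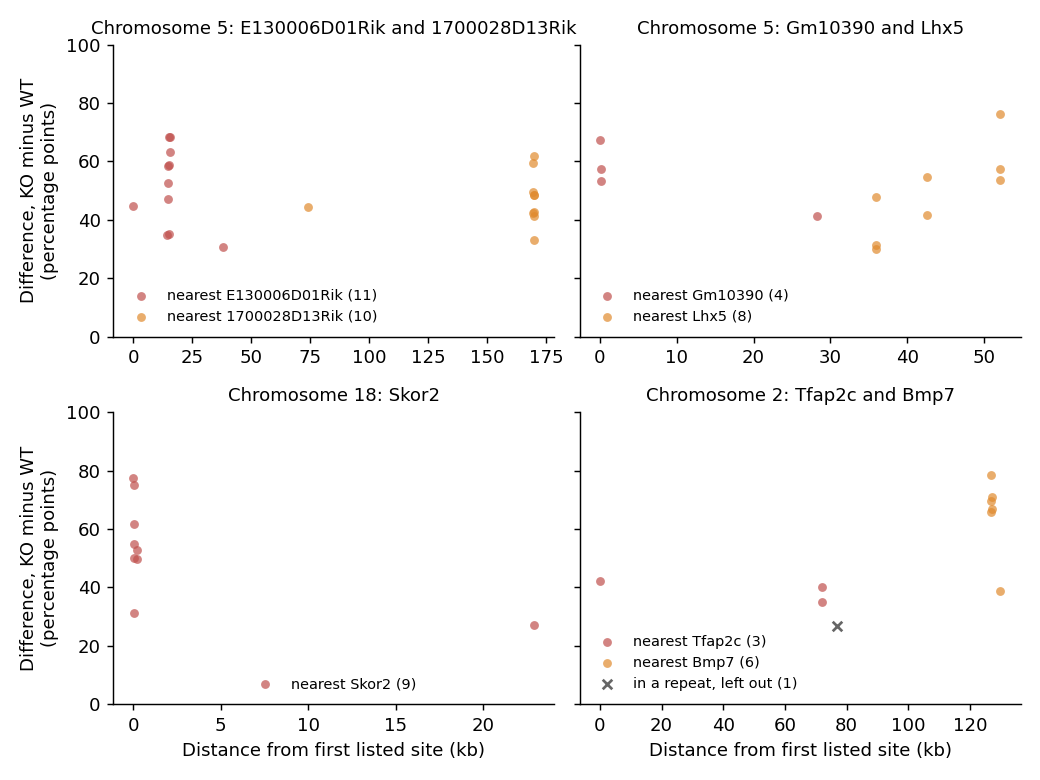
The 4 desert stretches with the most sites, with the distance from the first listed site of the stretch (x axis, kb, a separate scale in each panel) and the methylation difference (y axis, percentage points); colours mark the nearest gene and the cross a repeat site left out of the class. All 51 desert sites shown are hypermethylated, and most stand in tight clusters with long gaps between them.

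The 5 sites upstream of Smad3, which transmits TGF-β signals to the nucleus, lay on chromosome 9 between 63725018 and 63728592. In the authors' deposited table a lone site had 45.2 percentage points, and 4 sites within 47 bp had 68.6, 68.4, 66.2 and 59.3. Near Hs2st1, the gene of a heparan sulfate sulfotransferase, 5 sites on chromosome 3 (144062419 to 144062667) ranged from 33.3 to 62.1 percentage points. Across the same desert, Lmo4, the gene of a LIM-only transcriptional cofactor, had 3 sites at 37.4, 38.5 and 41.9. Rragc, which encodes a Rag GTPase that relays amino acid supply to mTORC1, had 7 sites on chromosome 4, 228617 to 282785 bp past its start, and the authors' deposited table gives them a mean of 39.5 percentage points. Gjb5, a connexin gene, had 6 within 197 bp on chromosome 4, with a mean of 34.9 percentage points and a range of 27.9 to 41.7. The 5 sites downstream of Hnrnpd, which encodes an RNA-binding protein of mRNA decay, stood within 36 bp of a single strand of chromosome 5 and ranged from 40.1 to 61.7. Lsm14a, a gene of RNA processing bodies, had 5 sites on chromosome 7 with a mean of 39.1 percentage points, and 2 more listed sites directly beyond them were in a LINE repeat. Matn1, a cartilage matrix gene, differed in form: its 5 sites on chromosome 4 were 5 separate regions spread from 102168 to 446852 bp past its start, at 26.0 to 54.6 percentage points. Outside the desert class, Matn1 had 4 hypermethylated intron sites with a mean of 63.2 percentage points, above its desert mean of 35.9.

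**Figure D5:**
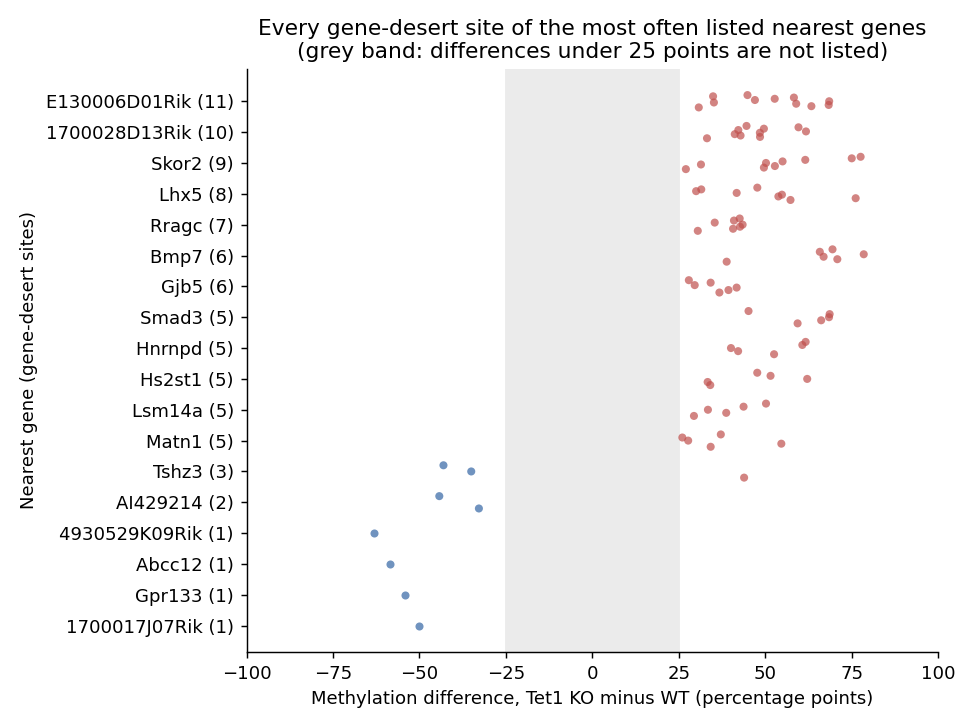
All gene-desert sites of the 12 nearest genes with the most hypermethylated sites and the 6 with the most hypomethylated ones (y axis, number of sites in parentheses), by methylation difference (x axis, percentage points). Bmp7 and Smad3 sites lie mostly above 59, Gjb5 and Rragc sites all lie below 44, and Tshz3 has sites on both sides of the unlisted grey band.

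Values also varied inside the clusters. Of the 248 hypermethylated desert regions, 180 were single sites and 68 held at least 2 (27.4%, interval 22.0 to 33.4%), beside 31.8% of all hypermethylated regions (30.3 to 33.3%). The 31 regions of at least 3 sites held 129 sites and spanned 9 to 1010 bp, with a median of 47 bp. Inside such a region the sites spread over a median range of 17.4 percentage points, with a median SD over sites of 8.24, and the SD of the 31 region means was 10.3. Region means had a median of 38.2 percentage points for single sites (36.3 to 40.6) and 39.7 for the 68 regions of at least 2 sites (37.3 to 43.7). Among the latter, the regions of at least 3 sites had a median of 44.0 (39.1 to 54.1). These intervals overlap, and the differences were not tested. Sequencing reads were 50 bp long, so sites this close can share reads. Of the 31 regions, 15 had listed sites on both strands.

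A CpG listed on both strands gives a pair of readings of the same position in the same samples. There were 5 such CpGs in the deserts, and the readings had the same direction in all 5. They were 41.7 and 39.4 percentage points near Gjb5, 42.9 and 48.5 near 1700028D13Rik, 47.4 and 44.7 near Bai1, 55.0 and 50.2 near Skor2, and 48.5 and 37.8 near the cadherin gene Fat3, all from the authors' deposited table. The median gap was 4.80 percentage points (2.36 to 10.7), beside 8.29 over the 57 such CpGs of the tables (0.149 to 40.4). Since both strands had to pass the limit of 25, these gaps leave out CpGs with a listed and an unlisted strand.

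Desert sites lay on both sides of the nearest start. Upstream of it were 214 of the 383 hypermethylated sites, and counted by region the share was 52.4% (130 of 248, interval 46.0 to 58.8%). For hypomethylated regions it was 45.7% (16 of 35, 28.8 to 63.4%). From 20 to 100 kb, 53.9% of hypermethylated regions lay upstream (49.3 to 58.4%), and within 20 kb 83.5% did (79.9 to 86.7%). Sequence shortly downstream of a start is often part of the gene and is then not annotated as intergenic.

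Among the 6 gene lists, that of developmental transcription factors was the longest and had the most members nearest to desert sites. Of the 200 genes of this list, 109 had a listed site anywhere and 23 had a desert site, 20 of them with hypermethylated desert sites alone. Over all 3344 genes with a listed site, 240 had a desert site (7.18%). These 23 genes had 51 desert sites in 31 regions, 47 hypermethylated (median 39.0 percentage points, beside 40.1 over all hypermethylated desert sites) and 4 hypomethylated. Desert sites were 17.2% of the 296 listed sites of this list, beside 6.22% of all listed sites. The lists were chosen with earlier results of these data known and long intergenic flanks are usual for such genes, so nothing particular to this or any other list is read from such shares. After Lhx5, which had 8, the most sites were 4 each nearest Mycn, which drives the growth of progenitor cells, Barhl2, a homeobox gene of the nervous system, and Pitx1, which specifies the hindlimb. Barhl2 had 4 sites 102905 to 115799 bp upstream on chromosome 5, listed by the authors at 26.0 to 65.2 percentage points, and 4 more intergenic hypermethylated sites outside the class (mean 39.2). Among genes named after their values were seen, Pitx1 had its sites at 130949 to 131721 bp (mean 43.0 percentage points), and the Iroquois homeobox genes Irx1, Irx3, Irx5 and Irx6 had 1 hypermethylated site each, at 26.4, 39.0, 55.2 and 33.3.

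Tshz3, a teashirt zinc finger gene of smooth muscle and neurons, had desert sites of both directions. A pair of sites 15 bp apart on chromosome 7 (37116129 and 37116144), 367008 and 366993 bp upstream, are listed in the authors' deposited table at -43.1 and -35.0 percentage points. A hypermethylated site at 37954186, 471049 bp downstream, had 43.9. Losses were also listed near Tcf4, an E protein gene (-44.0 percentage points), and Maf, a bZIP factor gene of lymphoid and lens cells (-26.6); Tcf4 was picked out once its value was known.

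The list of secreted signals and their receptors also held the intracellular transducers Smad1 and Smad3. Of its 138 genes, 51 had a listed site and 6 had a desert site. Desert sites were 15.1% of the 106 listed sites of this list, beside 6.22% of all listed sites. They comprised 14 hypermethylated sites, with a median of 66.0 percentage points, and 2 hypomethylated ones. Bmp7 and Smad3 alone held 11 of the 14, so this median is in the main that of those 2 places. Fgfr2, a fibroblast growth factor receptor gene, had 2 sites 16 bp apart on chromosome 7, 137314 and 137330 bp downstream of its start, and their listed mean was 43.7 percentage points. Tgfb2, which encodes another ligand of the TGF-β family, had 1 site at 36.6. The hypomethylated sites were nearest Inhba, which encodes an activin subunit (-40.3 percentage points at 333573 bp), and Smad1, which transmits BMP signals (-30.9 percentage points at 108890 bp). Tgfb2, Inhba and Smad1 were named after their values were seen.

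Of the 114 blood cell genes listed, 27 had a site in the tables and 6 had a desert site. Their 9 desert sites, in 7 regions, were 14.8% of the 61 listed sites of this list, beside 6.22% of all listed sites. Lef1, a Wnt-responsive factor of early lymphocytes, had the highest desert value of all. Its 2 sites on chromosome 3, 41 bp apart on the reverse strand and 187040 and 186999 bp upstream, are listed in the authors' deposited table at 43.8 and 87.5 percentage points. Thy1, a surface glycoprotein of T cells and of some stem cells, had 3 upstream sites on chromosome 9, at 65.6 and 57.4 percentage points for a pair 17 bp apart and 69.6 for a site 14008 bp nearer to the gene. All 3 lay above the desert median. Across the same desert, Pvrl1, an adhesion molecule gene, had 2 sites at 30.3 and 46.9. Tet2, which encodes another dioxygenase of the Tet family, had 1 site 210226 bp upstream on chromosome 3 (30.1 percentage points), and Irf8, a factor of monocytes and dendritic cells, had 1 at 149915 bp downstream (36.3 percentage points). Hypomethylated sites lay nearest Runx2, a Runt factor of bone (-40.4 percentage points, 138286 bp), and Jun, an AP-1 subunit gene (-30.6 percentage points, 102027 bp, in the authors' deposited table). Tet2, Irf8 and Jun were named after their values were seen.

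In the list of cell cycle, survival and oncogenes, 12 of 61 genes had a listed site and 3 had a desert site, namely Mycn, Lmo4 and Maf. Their 8 desert sites, in 5 regions, were 21.6% of the 37 listed sites of this list, the highest of the 6 shares. The lists overlap, so these shares are not independent. Mycn and Maf are also in the list of developmental transcription factors, and Lef1 is in that list and in the list of blood cell genes. Mycn had 3 sites within 49 bp on chromosome 12 at 66.5, 52.2 and 47.6 percentage points and another 39978 bp farther away at 39.6 in the authors' deposited table. All 4 lay 216613 to 256639 bp past its start, and no other site in the tables was nearest to Mycn. Of 149 genes of neuronal adhesion, guidance and synapse, 56 had a listed site and 5 had a desert site, all hypermethylated: Tenm3 with 3 sites (mean 37.9 percentage points) and Ntm, Epha4, Flrt2 and Cntnap4 with 1 each. Of 90 matrix genes, 32 had a listed site and 2 had a desert site, with 2 sites near Sdc2, the gene of the proteoglycan syndecan (mean 27.7 percentage points), and 1 near Hs3st4 (36.3). Desert sites were 5.34% and 5.17% of the listed sites of these last lists, close to the 6.22% over all genes. Septin9, a cytoskeletal GTPase gene whose name was stored as a date, had 1 desert site at 128026 bp (41.7 percentage points) beside 11 hypermethylated intron sites.

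Nearly all hypomethylated desert sites stood alone, as did hypomethylated sites over the whole tables. Of 35 such desert regions, 33 were single sites (5.71% held at least 2, interval 0.700 to 19.2%), beside 436 of all 451 hypomethylated regions (3.33% held at least 2, 1.87 to 5.43%). The others in the deserts were the pair near Tshz3 and a pair 67 bp apart near AI429214 on chromosome 8 (listed in the authors' deposited table at -44.3 and -32.8 percentage points). The largest loss was -63.2 percentage points, 222253 bp downstream of 4930529K09Rik on chromosome 14. It was followed by -58.6 at 234328 bp from Abcc12, a transporter gene, -54.2 at 171871 bp from Gpr133, an adhesion G protein-coupled receptor gene, and -50.0 at 120699 bp from 1700017J07Rik. The nearest hypermethylated site of any annotation lay a median of 457862 bp away. It came within 20000 bp at a single place, near 4933407H18Rik on chromosome 5, where -36.7 and 28.1 percentage points were listed 10637 bp apart. The same distance was not computed for hypermethylated desert sites or for sites outside the deserts. Whether losses lay farther from gains than other listed sites do is therefore not known. Of the 35 genes nearest to a hypomethylated desert site, 6 had hypermethylated sites elsewhere and 2 had another hypomethylated site. The smallest loss was the site nearest the imprinted gene Snrpn (-25.1 percentage points, 360781 bp), named after its value was seen.

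Most of the nearest genes had no other listed site. Of the 240 genes, 160 had a single desert site, and 91 (37.9%) also had listed sites outside the class, of which 9 had any in a promoter. The same shares were not computed for genes nearest to other classes of sites, so these counts have no background. Non-coding genes and pseudogenes were nearest to 80 of the 420 desert sites (19.0%, interval 15.4 to 23.1%), beside 16.4% (13.9 to 19.1%) from 20 to 100 kb, 11.9% (9.66 to 14.4%) within 20 kb and 10.9% (10.1 to 11.6%) of all listed sites. These shares count sites and not regions, and they were not tested. All 21 sites of the chromosome 5 stretch with the most sites are among the 80. Of these, 11 were nearest E130006D01Rik and 10 nearest 1700028D13Rik, both non-coding. The share without that stretch was not computed, so no trend with distance is read from these values. Whether a stretch counts as a desert depends on the annotation. For 9 stretches with 2 nearest genes, the gene order of a later annotation (RefSeq on GRCm38.p6) was examined. It placed at least 1 long non-coding RNA gene between the flanking genes in 8 of the 9 stretches, and no protein-coding gene in any. The exception was the stretch between Irx5 and Irx6, with no gene between them. Between E130006D01Rik and 1700028D13Rik it placed 7 long non-coding RNA genes, and between Tfap2c and Bmp7 it placed 5. Their positions relative to the sites were not determined, since the builds differ.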

How the data were processed

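Bisulfite sequencing of 3 WT and 3 Tet1 KO LSK samples was processed by the authors. The submitters' processing notes name Bismark and mm9. How differences were called, with which coverage minimum and thresholds, and how replicates were combined is not given in the sources used here. Deposited values, made by the authors, are a methylation difference in percentage points and a signed distance to the nearest start in base pairs, per the file headers. The tables hold 0 columns of values per sample, so the planned model of counts per sample was not run, and depth per sample is unknown.

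Members were rows annotated Intergenic at 100000 bp or more whose detailed annotation did not begin with CpG or hold 2 or more bar characters. Distances are absolute. Upstream or downstream is the sign of the distance multiplied by the strand of the cytosine, which matched RefSeq gene strands at 2601 of 2608 sites checked (208 of 211 desert sites). Sites of the same direction under 1000 bp apart were joined. Shares carry exact Clopper-Pearson intervals and medians rank-based intervals at 95%. No test was run between classes of sites. Entrez identifiers of 418 of 420 member sites matched RefSeq (GRCm38.p6), used for names, strands and gene order alone. No mm9 genome was used, so no site sequences are shown.

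The rule for named genes took the 12 with most hypermethylated and 6 with the most hypomethylated member sites, those with both directions (up to 6), those of the 5 largest gains, 3 largest losses and 3 farthest sites, and 3 per list. The members and the 6 lists were chosen with earlier results of these data known. The selection and the joining were tested on simulated data. Analyses used Python 3.11.15, pandas 2.3.3, SciPy 1.17.1 and matplotlib 3.10.9.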

Additional observations from a re-analysis of the deposited data

How the results depend on the processing

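The settings tried were a minimum difference of 40 percentage points in either direction, a distance of at least 200000 bp, island and repeat rows kept, the forward strand alone, autosomes alone and joining within 200 or 5000 bp. Leaving out unplaced contigs, and the chromosome 5 stretch of 21 sites, were added after the data were seen. Under these settings the hypermethylated share ranged from 81.1% to 93.3%. The medians could not change sign, since each was taken within a list of a single direction. Of 30 values, 25 stayed inside the interval of the reported value. Several settings kept nearly all of the same sites, so little movement was possible there and this count does not measure reliability. At 200000 bp or more the hypermethylated share fell to 85.1% of sites and 81.1% of regions and the median gain was 38.2 percentage points; this subset has 141 sites, 21 of them hypomethylated. At 40 percentage points or more the medians were 48.7 and -43.5 percentage points by construction, since smaller differences were removed. No paired analysis was possible because the tables hold 1 difference per cytosine over all samples, and for the same reason no replicate could be left out. Without coverage or replicate values, the reliability of a single site cannot be stated, and unlisted cytosines were not used here, so counts also reflect which cytosines were read.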
